A study of Mus musculus with 6 samples.

Results

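The 9 genes described here make or handle retinoic acid in the cell, or are its nuclear receptors. They are the retinal dehydrogenases Aldh1a1 and Aldh1a3, the retinol and retinal oxidoreductases Rdh10, Dhrs3 and Dhrs9, the binding protein Crabp2, and the receptors Rara, Rarb and Rarg. They were chosen by name among the 25273 genes that the transcripts of the deposited files could be matched to. Of the 9, 7 reached a mean of 1 FPKM (fragments per kilobase of transcript, adjusted for library depth) over all libraries and were tested with 10255 genes in all. Dhrs9 and Rarb stayed below that level and are described by their values. The libraries were made from RNA of prostate basal cells of C57BL/6 mice aged 8 to 12 weeks, with 3 libraries from the distal ducts and 3 from the proximal ducts. No transgene, deletion or treatment is named for either group. The labels state that cells were stained with antibodies and sorted, but name neither the antibodies nor the gates, and they also describe a culture of prostate stromal cells. Whether each library stands for an animal of its own is not stated. The p-values therefore reflect only how far these 6 libraries differ within their groups, and that spread may be technical. Libraries are named by group and by the replicate number of the labels.

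Retinoic acid is made from vitamin A in a short chain of reactions. Retinol enters the cell in part through the membrane receptor STRA6. RDH10 oxidises retinol to retinal, DHRS3 reduces retinal back to retinol, and the retinal dehydrogenases of the ALDH1A family oxidise retinal to retinoic acid in a step that is not reversed. CRABP2 carries retinoic acid to the nucleus, where receptors RARA, RARB and RARG act on DNA as dimers with the retinoid X receptors. The CYP26 enzymes break retinoic acid down. Lack of vitamin A turns glandular epithelia of the urogenital tract into stratified, keratinising ones, and mice without Rarg show this change in the prostate and seminal vesicle.

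Receptor dimers bind pairs of a hexamer in direct repeat, and Rarb is the textbook gene that carries such a pair beside its own start. RefSeq promoters of build GRCm38.p6, each 300 bases long with 250 before and 50 after the start, were present for 6 of the 9 genes (13 promoters). They were searched on both strands for direct repeats with a spacing of 1, 2 or 5 bases. Each copy could be the consensus AGGTCA, the form AGTTCA, the form GGGTCA or the form GGTTCA. Among these 13 promoters that of Rarb held a match, against 0.588% of the 32851 promoters in the table. The repeat of Rarb is spaced by 5 bases, a form held by 0.0974% of all promoters, and lies at chr14:16575513-16575529, 53 bases before the start at its far end. Beyond the 9 genes, 77 of 107 genes of the wider pathway had a promoter, and 2 of them held a match: Bco1 with a spacing of 1 base and Cyp26a1 with a spacing of 5. The Cyp26a1 repeat lies at chr19:37697776-37697792 on the minus strand, opposite to the gene, with its far end 32 bases before the start. The Rarb region is shown because it holds the repeat and ends just before the start site shared by every Rarb transcript matched here. The Aldh1a1 region is shown because it precedes the downstream start. The transcript listed from there held nearly all of the FPKM of the most abundant gene described here. How much of its RNA began at that start was not measured. The Aldh1a1 region held no match to the searched letters. All 3 sequences are printed 5′ to 3′, with the hexamers of the repeats in capitals.
Rarb, 250 bases before the start, chr14:16575477-16575726, minus strand: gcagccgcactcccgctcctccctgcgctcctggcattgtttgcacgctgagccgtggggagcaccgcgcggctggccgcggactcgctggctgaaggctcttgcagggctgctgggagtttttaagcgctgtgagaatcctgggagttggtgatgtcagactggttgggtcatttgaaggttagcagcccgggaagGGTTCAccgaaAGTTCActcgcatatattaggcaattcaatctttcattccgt
Cyp26a1, repeat before the start, chr19:37697776-37697792, minus strand: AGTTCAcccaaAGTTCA
Aldh1a1, 250 bases before the downstream start, chr19:20601718-20601967, plus strand: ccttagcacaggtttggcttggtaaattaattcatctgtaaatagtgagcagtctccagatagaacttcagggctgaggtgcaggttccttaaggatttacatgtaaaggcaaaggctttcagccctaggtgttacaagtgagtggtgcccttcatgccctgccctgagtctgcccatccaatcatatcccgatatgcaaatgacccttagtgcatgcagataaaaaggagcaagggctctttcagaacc

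The depth implied by the intervals in the files ran from 20700000 to 26600000 fragments per library. Basal markers summed to between 7781 and 9473 FPKM in the distal libraries and to between 9011 and 9254 in the proximal ones. Of 12 tested, 5 were higher in proximal libraries (Krt5, Krt15, Lama3, Lamb3 and Col17a1) and none was lower by limma's adjusted p, with 7 higher and 2 lower at an unadjusted p under 0.05. Over all tested genes, 4.52% were called higher. Marker genes of proximal luminal progenitors were higher in proximal libraries for 10 of 12 tested. Endothelial markers were higher for 5 of 10 tested (7.66 to 23.3 FPKM against 33.7 to 46.4). Nerve and glia markers were higher for 3 of 6 (38.6 to 46.3 against 48.6 to 68.5), and fibroblast and smooth muscle markers for 6 of 13, among them Vim (mean of 7.11 FPKM against 24.7) and Pdgfrb (0.615 against 1.93). The summed FPKM of the fibroblast and smooth muscle list was nevertheless lower in proximal libraries (842 to 885 against 805 to 832), since it was mostly Dcn, at a mean of 769 FPKM against 679, which did not pass. Leukocyte markers had no call among 3 tested, with limma's test and also at an unadjusted p under 0.05, and Cd3g was listed at 0 in all 6 libraries. Urethral and seminal vesicle markers summed to 42.6 to 43.1 FPKM in distal libraries and to 104, 255 and 558 in proximal 1, 2 and 3. Svs5, a seminal vesicle secretory protein, was at 0.325, 0.860 and 0.393 FPKM in the distal libraries and at 0.391, 107 and 239 in proximal 1, 2 and 3. Proximal 2 and proximal 3 therefore stood apart from the other 4 libraries in seminal vesicle transcripts, and called retinoid genes are also given without them. Dissociation and immediate early genes summed to 9699, 17231 and 17957 FPKM in distal 1, 2 and 3 and to 6996 to 8914 in proximal libraries. The part of these markers in the results on retinoid genes was not tested.

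Aldh1a3, which oxidises retinal to retinoic acid, was the member that differed by the test between proximal and distal basal cells, and its level was 2.98-fold higher in proximal libraries. Aldh1a1, which catalyses the same step and was the most abundant member, had a mean 1.51-fold higher in distal libraries and missed the threshold. In bulk libraries, fewer cells of a type and less RNA per cell cannot be told apart. The means of all 9 genes over the 6 libraries fell in the order Aldh1a1 (198 FPKM), Rdh10 (33.6), Aldh1a3 (21.3), Dhrs3 (14.3), Rarg (9.01), Rara (5.44), Crabp2 (2.59), Rarb (0.938) and Dhrs9 (0.146). In this order the ranges over libraries of Rdh10 and Aldh1a3, of Aldh1a3 and Dhrs3, and of Dhrs3 and Rarg overlapped, and those of the other neighbours did not.

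**Figure D1:**
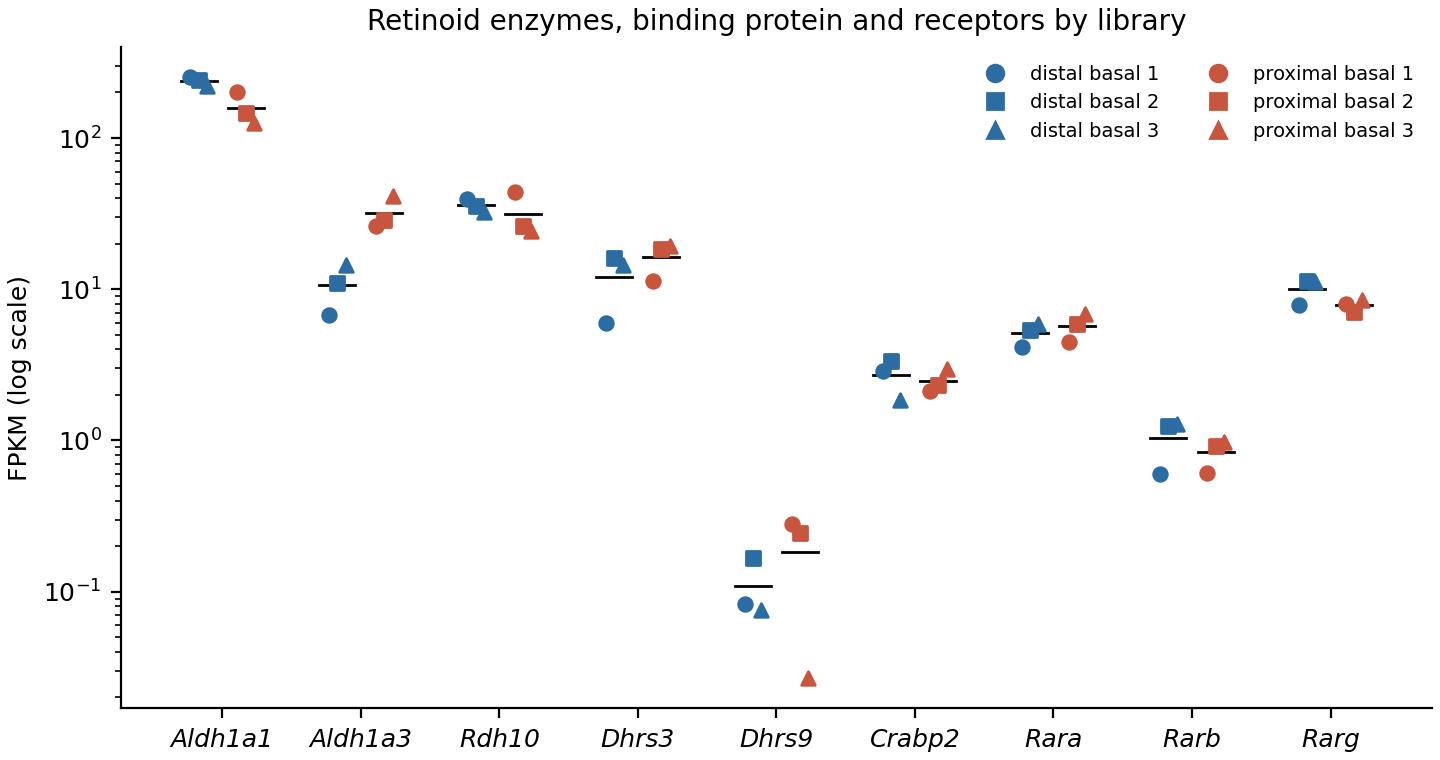
FPKM of the 9 retinoid genes on a log axis, with a point for each of the 3 distal and 3 proximal libraries and bars for the group means. Groups do not overlap for Aldh1a1 (203 FPKM or less in proximal libraries, 220.1 or more in distal ones) and Aldh1a3 (26.1 or more against 14.5 or less).

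Aldh1a3 (ENSMUSG00000015134.15, chr7:66390890-66427517, minus strand, GRCm38) was at 6.71, 11 and 14.5 FPKM in distal 1, 2 and 3 and at 26.1, 28.5 and 41.2 in proximal 1, 2 and 3. All 3 proximal libraries lay above all 3 distal ones. The group means were 10.7 ± 3.89 (SD, n = 3) and 32.0 ± 8.10 FPKM. The log2 fold change of FPKM + 1 was 1.52 ± 0.27 (SE; 95% interval 0.90 to 2.13), with an adjusted p of 0.0154 from limma with Benjamini-Hochberg adjustment over all 10255 tested genes. The call did not hold without distal 2 (log2 fold change 1.57, adjusted p = 0.0613 in limma), without proximal 2 (1.59, 0.0615) or without proximal 3 (1.33, 0.0545). It also missed the threshold when 18570 genes were tested with no filter on low values (adjusted p = 0.0502 in limma). Without both proximal libraries that held seminal vesicle transcripts the log2 fold change was 1.27 and the adjusted p 0.325, with 1 proximal library left and its spread taken from the distal ones. In proximal 1, where Svs5 was at the level of the distal libraries, Aldh1a3 was at 26.1 FPKM, above the highest distal value of 14.5. Markers of proximal luminal progenitors were also higher in proximal libraries. Their sums were 1033, 996 and 1066 FPKM in distal 1, 2 and 3 and 2211, 1923 and 2073 in proximal 1, 2 and 3. Within neither group did these sums follow the order of Aldh1a3. Sums of urethral and seminal vesicle markers were 104, 255 and 558 FPKM in proximal 1, 2 and 3, which is the order of Aldh1a3 there. In distal 1, 2 and 3 they were 43.1, 42.6 and 43.1 FPKM, which is not its order. The part of either set of markers in the difference of Aldh1a3 was not tested.

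Aldh1a1 (ENSMUSG00000053279.8, chr19:20492715-20643465, plus strand) was at 253, 243 and 220.1 FPKM in distal 1, 2 and 3 and at 203, 146 and 125 in proximal 1, 2 and 3. Every distal library lay above every proximal one, and proximal 1 was the closest to the distal group. The means were 239 ± 17.1 (SD, n = 3) and 158 ± 40.2 FPKM. The log2 fold change was -0.62 ± 0.18 (SE; 95% interval -1.03 to -0.22), with an unadjusted p of 0.00779 and an adjusted p of 0.0773 in limma. Without proximal 1 it was -0.82 with an adjusted p of 0.0116 in limma. Without both libraries numbered 1 it was -0.77 with an adjusted p of 0.00965. Without proximal 2 and proximal 3 it was -0.23 with an adjusted p of 0.616, so most of the difference rested on these libraries. Aldh1a7, a close copy of Aldh1a1 in the mouse genome, was at 45.5, 48.4 and 42.1 FPKM in the distal libraries and at 45.7, 30.9 and 23.4 in proximal ones. Reads that fit both genes could be assigned to either, so the levels of Aldh1a1 and Aldh1a7 are uncertain to that extent.

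The mix of retinal dehydrogenase transcripts was given by each gene's share of the summed FPKM of Aldh1a1, Aldh1a2 and Aldh1a3. The share of Aldh1a3 was 2.57, 4.32 and 6.15% in distal 1, 2 and 3 and 11.3, 16.2 and 24.7% in proximal 1, 2 and 3. The proximal shares were all higher, with means of 4.35 ± 1.79% (SD, n = 3) and 17.4 ± 6.78%. The exact two-sided permutation p was 0.1, the smallest that 3 against 3 libraries can give. It was 0.163 after Benjamini-Hochberg adjustment over the 13 shares, sums and ratios compared in this way. The ratio of Aldh1a1 to Aldh1a3 FPKM was 37.8, 22.1 and 15.2 in distal libraries and 7.75, 5.13 and 3.03 in proximal ones. Aldh1a1 thus had the higher FPKM in all 6 libraries. The summed FPKM of the 3 dehydrogenases was 261, 255 and 235 in distal 1, 2 and 3 and 230.5, 176 and 167 in proximal 1, 2 and 3. The distal sums were all higher (exact permutation p = 0.1), and distal 3 and proximal 1 lay close together. Aldh1a2, the retinal dehydrogenase known best from embryonic mesenchyme, was at 0.611 to 0.690 FPKM in the distal libraries and at 1.76, 0.662 and 0.713 in proximal 1, 2 and 3. It was highest in proximal 1 and was too low to be tested.

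**Figure D2:**
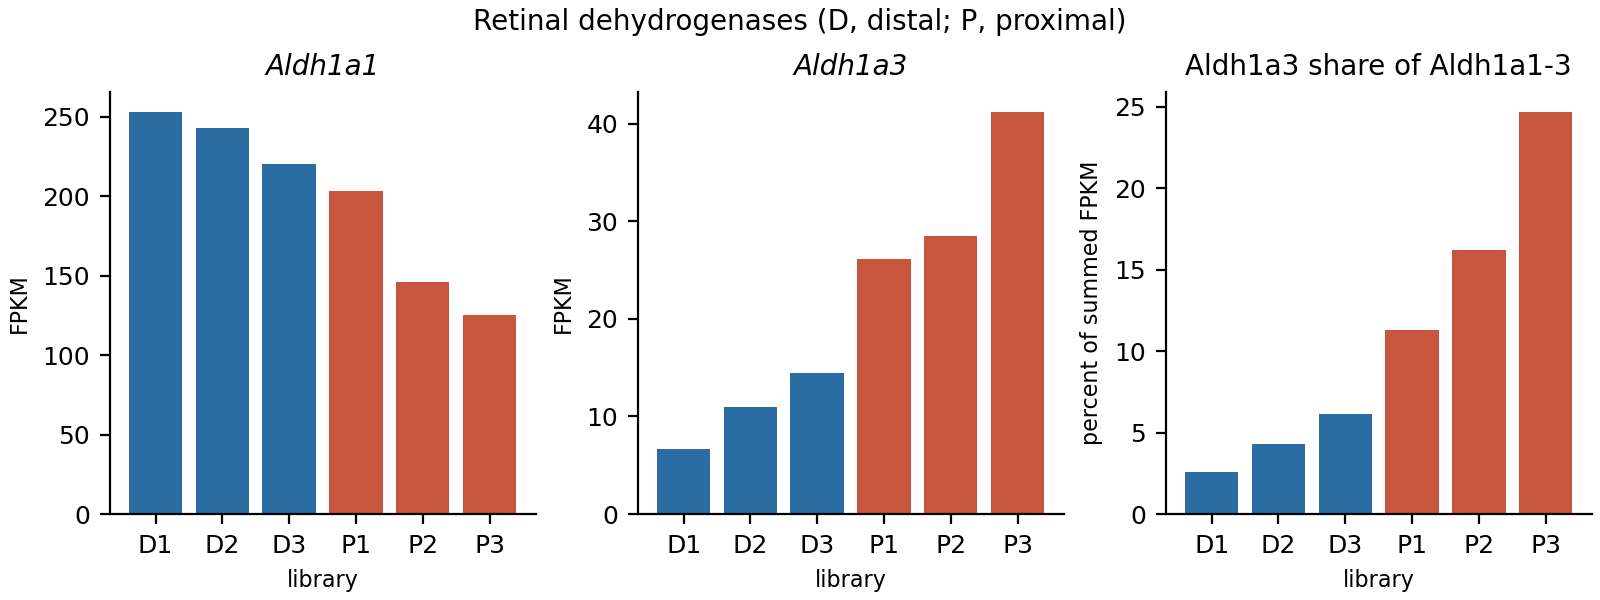
Aldh1a1 FPKM, Aldh1a3 FPKM, and the percent of the summed FPKM of Aldh1a1, Aldh1a2 and Aldh1a3 that was Aldh1a3, as a bar for each library (D, distal, and P, proximal, with the replicate number). The share is 6.15% or less in distal libraries and 11.3% or more in proximal ones.

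Aldh1a3 had 2 matched transcripts, and each was higher in proximal libraries. The one of 3400 bases was at 2.66, 4.79 and 5.90 FPKM in distal 1, 2 and 3 and at 12.6, 13.7 and 19.7 in proximal 1, 2 and 3. The one of 1221 bases was at 4.05, 6.24 and 8.57 FPKM in the distal libraries and at 13.5, 14.8 and 21.5 in proximal ones. Neither overlapped between groups. The shorter transcript made up 56.6 to 60.4% of Aldh1a3 FPKM in distal libraries and 51.7 to 52.2% in proximal ones (exact permutation p = 0.1). Aldh1a1 has an upstream start at 20492715 and a downstream one at 20601982 in the files. The transcript from the downstream start was at 249, 238 and 215 FPKM in the distal libraries and at 199.9, 145 and 124 in proximal ones. It held 97.8 to 98.2% of Aldh1a1 FPKM in distal libraries and 98.7 to 99.2% in proximal ones. The matched transcripts from the upstream start end at or before 20566853, short of the downstream start. RNA that began upstream and ran on past that point could thus be counted with the downstream transcript. The shares therefore do not measure how much each start was used.

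Of the enzymes that convert retinol and retinal into each other, none of the members passed the test. Rdh10 (chr1:16105774-16133734, plus strand), the main retinol dehydrogenase of the embryo, was at 39.3, 35.5 and 32.6 FPKM in distal 1, 2 and 3 and at 43.9, 26.1 and 24.3 in proximal 1, 2 and 3. Proximal 1 was the highest of all libraries and the other proximal libraries were the lowest, so the groups overlapped. Rdh10 had a log2 fold change of -0.23 ± 0.21 (SE; 95% interval -0.72 to 0.26), with an adjusted p of 0.556 in limma. Without proximal 1 it was -0.49, with an adjusted p of 0.0445 in limma, and without both libraries numbered 1 it was -0.42 with 0.0291. Without proximal 2 and proximal 3 it was 0.29 with an adjusted p of 0.541, so its sign rested on these libraries. Dhrs3 (chr4:144892827-144928209, plus strand), which reduces retinal and is itself induced by retinoic acid, was at 5.98, 16.0 and 14.4 FPKM in the distal libraries and at 11.3, 18.4 and 19.4 in proximal ones. The groups overlapped, and the library numbered 1 was the lowest in each. The log2 fold change was 0.47 ± 0.35 (SE; 95% interval -0.33 to 1.27), with an adjusted p of 0.448 in limma. It was 0.07 without distal 1 and 0.01 without proximal 2 and proximal 3.

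Dhrs3 had 3 transcripts above 0. The one of 1713 bases was at 5.98, 7.31 and 6.94 FPKM in distal 1, 2 and 3 and at 8.31, 10.8 and 15.8 in proximal 1, 2 and 3, with no overlap. The one of 1868 bases was listed at 0 in distal 1 and at 2.98 to 3.79 FPKM in the other libraries. The one of 1349 bases, from the upstream start at 144892827, was at 5.65 and 4.36 FPKM in distal 2 and 3 and at 3.84 in proximal 2, and was listed at 0 in the rest. An exact 0 for a transcript that shares most of its exons with another can be a failed split of the reads, so these zeros show only what the files list. The same split sets the values of the transcript of 1713 bases, so its lack of overlap is uncertain too. Summed over its transcripts, Dhrs3 overlapped between groups. Dhrs9 (chr2:69380445-69404533, plus strand), a dehydrogenase of retinol and of steroids, was at 0.0829, 0.168 and 0.0753 FPKM in the distal libraries and at 0.280, 0.245 and 0.0268 in proximal ones. Proximal 3 was the lowest and proximal 1 the highest, and the deposited interval of proximal 3 ran from 0 to 0.0647 FPKM. With no filter on low values Dhrs9 had an adjusted p of 0.643 in limma.

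Crabp2 (chr3:87948666-87953376, plus strand), the carrier of retinoic acid to the nucleus, was at 2.89, 3.37 and 1.86 FPKM in distal 1, 2 and 3 and at 2.11, 2.33 and 2.99 in proximal 1, 2 and 3. The groups overlapped, and both the lowest and the highest library were distal. Crabp2 had a log2 fold change of -0.08 ± 0.19 (SE; 95% interval -0.52 to 0.37), with an adjusted p of 0.853 in limma. Without distal 2 its sign turned, at 0.05 with an adjusted p of 0.926.

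The retinoic acid receptors were led by Rarg, the form known as the main one of stratified epithelia, with Rara next and Rarb lowest in each of the 6 libraries. Rarg (chr15:102234938-102257517, minus strand) was at 7.89, 11.4 and 11.1 FPKM in distal 1, 2 and 3 and at 8.03, 7.07 and 8.52 in proximal 1, 2 and 3. Distal 2 and 3 lay above all proximal libraries, while distal 1 lay among them. Rarg had a log2 fold change of -0.32 ± 0.16 (SE; 95% interval -0.68 to 0.05), with an adjusted p of 0.265 in limma. Without both libraries numbered 1 it was -0.48 with an adjusted p of 0.0405 in limma. Rara (chr11:98927818-98974942, plus strand), the broadly expressed form, was at 4.13, 5.39 and 5.88 FPKM in the distal libraries and at 4.50, 5.88 and 6.85 in proximal ones. The groups overlapped, with the library numbered 1 the lowest in each. Rara had a log2 fold change of 0.13 ± 0.18 (SE; 95% interval -0.28 to 0.54), with an adjusted p of 0.698 in limma. It was 0.01 without distal 1, and also without proximal 3, and -0.15 with an adjusted p of 0.827 without both proximal 2 and proximal 3. Rarb (chr14:16430839-16819156, minus strand), the receptor gene that retinoic acid itself induces, was at 0.596, 1.25 and 1.28 FPKM in the distal libraries and at 0.612, 0.917 and 0.971 in proximal ones. The library numbered 1 was the lowest in each group, and the groups overlapped. With no filter on low values Rarb had an adjusted p of 0.708 in limma.

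The mix of receptors was given by the share of each in the summed FPKM of all 3. Rarg made up 62.6, 63.2 and 60.8% of the summed receptor FPKM in distal 1, 2 and 3 and 61.1, 51.0 and 52.1% in proximal 1, 2 and 3. Proximal 1 lay among the distal libraries (exact permutation p = 0.2). Rara made up 32.7, 29.8 and 32.2% in distal libraries and 34.2, 42.4 and 41.9% in proximal ones. Here the proximal shares were all higher, with means of 31.6 ± 1.54% (SD, n = 3) and 39.5 ± 4.57% (exact permutation p = 0.1, adjusted over the 13 measures 0.163). Rarb made up 4.72 to 7.01% in distal libraries and 4.66 to 6.61% in proximal ones (exact permutation p = 0.5). The summed FPKM of the 3 receptors was 12.6, 18.1 and 18.3 in distal libraries and 13.1, 13.9 and 16.3 in proximal ones, with overlap (exact permutation p = 0.4).

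Receptor genes have alternative starts that give proteins with different first exons. Rara transcripts from the start at 98937696 were at 2.21, 3.13 and 2.81 FPKM in distal 1, 2 and 3 and at 2.62, 3.47 and 4.52 in proximal 1, 2 and 3. Those from the start at 98960471 were at 1.92, 2.26 and 3.07 FPKM in the distal libraries and at 1.88, 2.40 and 2.34 in proximal ones. The upstream start held 47.8 to 58.0% of Rara FPKM in distal libraries and 58.3 to 65.9% in proximal ones, so the groups came close without overlapping (exact permutation p = 0.1). Rarg transcripts from the start at 102257522 were at 6.31, 9.63 and 11.1 FPKM in the distal libraries and at 8.03, 7.07 and 7.36 in proximal ones. Those from the start at 102246500 were at 1.59 and 1.8 FPKM in distal 1 and 2 and at 1.16 in proximal 3, and were listed at 0 in the rest. As for Dhrs3, such zeros can be a failed split of the reads. Every matched Rarb transcript has its start at 16575476, the one preceded by the repeat printed above. Use of any other Rarb start could therefore not be measured. In all, 24 transcripts were matched to the 9 genes, of which 13 were above 0 in every library, 5 were at 0 in every library and 6 were at 0 in some.

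**Figure D3:**
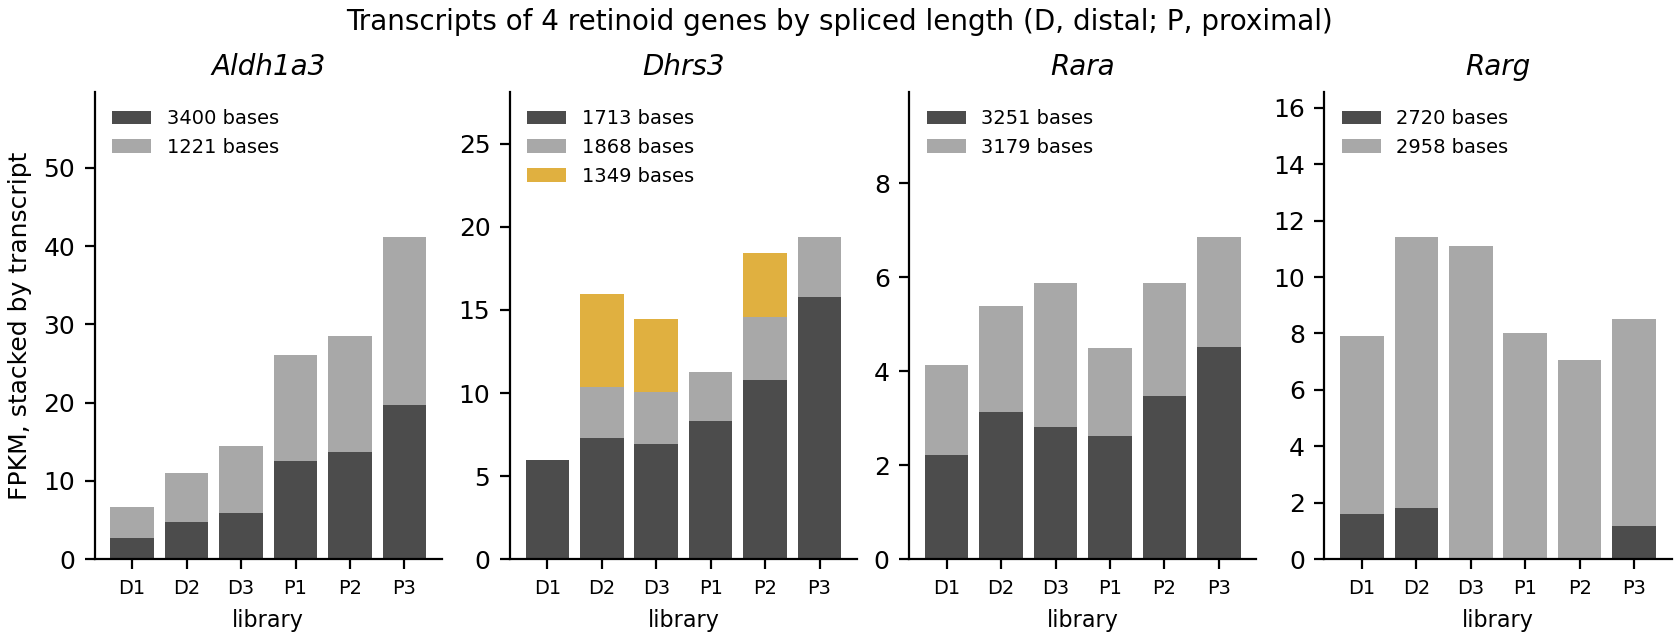
FPKM of the transcripts of Aldh1a3, Dhrs3, Rara and Rarg, stacked in a bar for each distal (D) and proximal (P) library and named by spliced length. Both Aldh1a3 transcripts are larger in all proximal libraries, and Dhrs3 and Rarg lack a transcript in some libraries of both groups.

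Among the 7 tested retinoid genes, 1 was higher in proximal basal cells (Aldh1a3), none was lower by limma's adjusted p, and 6 did not pass. At an unadjusted p under 0.05, 1 was higher and 1 lower (Aldh1a1). Over all tested genes 4.52% were called higher and 2.50% lower. The 7 genes had a median log2 fold change of -0.08, beside -0.01 for all tested genes. Groups did not overlap for 2 of the 7, with Aldh1a3 higher and Aldh1a1 lower, whereas 15.8% of all tested genes had all proximal libraries higher and 13.0% had all lower. Without both libraries numbered 1 there was 1 higher (Aldh1a3) and 3 lower (Aldh1a1, Rdh10 and Rarg), at a background of 8.59% higher and 12.9% lower.

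**Figure D4:**
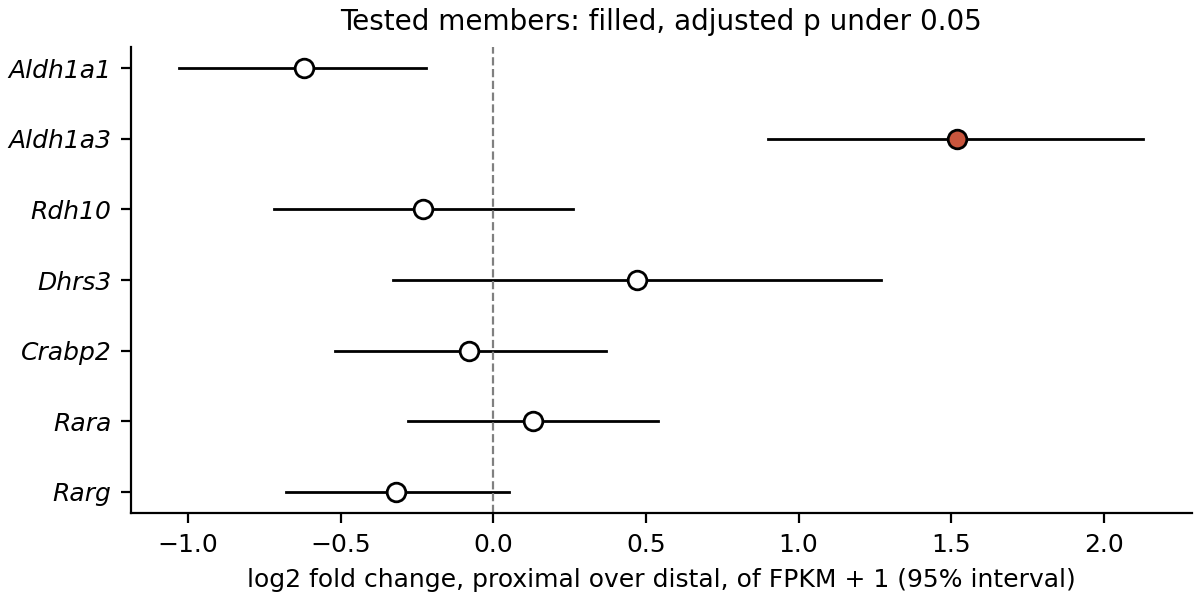
Log2 fold change of FPKM + 1, proximal over distal, of the 7 tested retinoid genes, with 95% intervals from limma. The interval of Aldh1a3 runs from 0.90 to 2.13 and that of Aldh1a1 from -1.03 to -0.22, and those of the other 5 genes include 0.

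Genes that bring retinol in and store it were 18 on a list made for this pathway, of which 16 were measured and 7 tested. One was lower in proximal libraries, none was higher by limma's adjusted p or at an unadjusted p under 0.05, and 6 did not pass, with a median log2 fold change of -0.53. The share called lower over all tested genes was 2.50%. The gene that fell was Stra6, the membrane receptor for retinol bound to its plasma carrier. Stra6 was at 12.3, 18.5 and 21.5 FPKM in distal 1, 2 and 3 and at 3.31, 5.72 and 5.55 in proximal 1, 2 and 3. Every proximal library lay below every distal one, and the log2 fold change was -1.65 ± 0.24 (SE; adjusted p = 0.00724 in limma). Without proximal 2 and proximal 3 it was -2.06 with an adjusted p of 0.0702.

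Of 24 other retinol and retinal oxidoreductases, 14 were tested and none was called in either direction with limma. At an unadjusted p under 0.05, 2 were higher and 2 lower, and the median log2 fold change was -0.04. Adh1, an alcohol dehydrogenase that also oxidises retinol, was at 37.0, 26.6 and 22.9 FPKM in the distal libraries and at 87.1, 55.5 and 44.0 in proximal ones. All proximal libraries lay above the distal ones, with a log2 fold change of 1.05 ± 0.26 (SE; adjusted p = 0.0528 in limma). The adjusted p was 0.0365 without distal 1 and 0.0488 without proximal 3. Of 5 other retinal dehydrogenases, 2 were tested and none was called with limma, nor at an unadjusted p under 0.05.

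Retinoic acid binding and breakdown genes were 7, of which 2 were tested. Fabp5, a fatty acid-binding protein that also carries retinoic acid, was at 102, 96.3 and 122 FPKM in the distal libraries and at 60.0, 58.4 and 76.7 in proximal ones. It was lower in all proximal libraries, with a log2 fold change of -0.71 ± 0.14 (SE; adjusted p = 0.0251 in limma). The call was lost without distal 2 (adjusted p = 0.0666), distal 3 (0.0960) or proximal 2 (0.114), with no filter on low values (0.0565), and without both proximal 2 and proximal 3 (0.162). Cyp2s1, a cytochrome P450 reported to act on retinoic acid, was at 11.2, 18.1 and 16.8 FPKM in the distal libraries and at 21.5, 24.7 and 27.4 in proximal ones, and did not pass (log2 fold change 0.66 ± 0.18 SE; adjusted p = 0.0708 in limma). Cyp26b1, chosen for mention after its values were seen, encodes the enzyme that breaks down retinoic acid in many epithelia and in mesenchyme. It was at 0.0630, 0.0526 and 0.0350 FPKM in the distal libraries and at 0.985, 0.725 and 0.572 in proximal ones. The groups did not overlap, and the gene stayed below the filter. With no filter it had an adjusted p of 0.0152 in limma, at a background of 2.24% of 18570 genes called higher. Its difference in mean log2(FPKM + 1) was 0.74, and 2.49 with a pseudocount of 0.1. Cyp26a1, whose repeat is printed above, was listed at 0 in 5 libraries and at 0.0489 FPKM in proximal 1, and Cyp26c1 was listed at 0 in all 6.

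**Figure D5:**
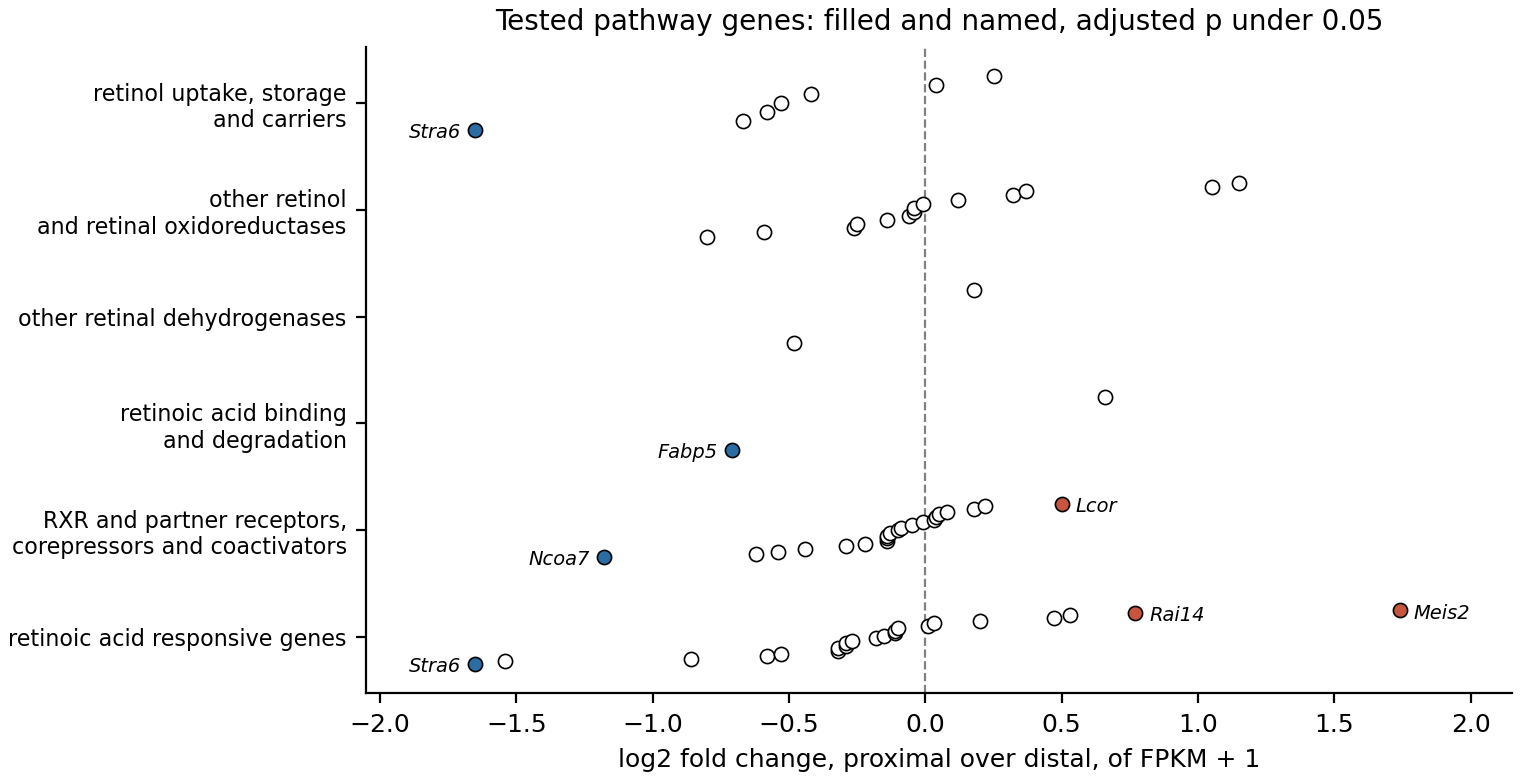
Log2 fold change of FPKM + 1, proximal over distal, of the tested genes in each list of other retinoid pathway genes, with a point for each gene and filled points for those that passed limma's test. Lcor, Meis2 and Rai14 are filled on the proximal side, and Stra6, Fabp5 and Ncoa7 on the distal side.

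Partner receptors, corepressors and coactivators were 24, of which 21 were tested, with 1 higher, 1 lower and 19 that did not pass, beside 4.52% higher and 2.50% lower over all tested genes. These counts are close to that background, and the median log2 fold change was -0.10. Lcor, a corepressor of nuclear receptors bound to ligand, was at 4.05, 3.67 and 4.23 FPKM in the distal libraries and at 5.87, 6.28 and 6.05 in proximal ones (log2 fold change 0.50 ± 0.12 SE; adjusted p = 0.0404 in limma). Ncoa7, a coactivator, was at 22.6, 40.1 and 49.1 FPKM in the distal libraries and at 11.8, 14.8 and 19.7 in proximal ones (log2 fold change -1.18 ± 0.28 SE; adjusted p = 0.0481 in limma). Neither gene overlapped between groups. Both calls were lost without distal 2 (adjusted p of 0.173 for Lcor and 0.182 for Ncoa7), distal 3 (0.111 and 0.140), proximal 2 (0.169 and 0.160) or proximal 3 (0.123 and 0.0704). They were also lost with no filter (0.0709 and 0.108), with a filter at 5 FPKM (0.0688 and 0.0512) and without both proximal 2 and proximal 3 (0.441 and 0.267). That of Ncoa7 was lost as well without proximal 1 (0.0843), with a pseudocount of 0.1 (0.0507), with FPKM rescaled to the same sum (0.0603) and without the variance trend (0.0569). Rxra, the main partner receptor in epithelia, was at 4.13, 8.42 and 7.09 FPKM in the distal libraries and at 4.22, 4.11 and 3.78 in proximal ones, with overlap at distal 1 (log2 fold change -0.54; adjusted p = 0.181 in limma).

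The list of genes responsive to retinoic acid held 38, and it gives no direction of response. Of these 22 were tested, with 2 higher, 1 lower and 19 that did not pass, beside the same 4.52% and 2.50%. These counts are near that background too, and the median log2 fold change was -0.16. The lower gene was Stra6, which is counted in this list too. Meis2, a homeobox factor of limb and urogenital patterning, was at 0.472, 1.39 and 0.921 FPKM in the distal libraries and at 5.05, 4.77 and 6.27 in proximal ones. Its groups were far apart, with a log2 fold change of 1.74 ± 0.20 (SE; adjusted p = 0.00271 in limma), and without proximal 2 and proximal 3 it was 1.68 with an adjusted p of 0.112. Rai14, a protein of actin bundles, was at 5.18, 4.40 and 4.73 FPKM in the distal libraries and at 9.53, 8.28 and 8.61 in proximal ones. All proximal libraries were higher (log2 fold change 0.77 ± 0.12 SE; adjusted p = 0.00977 in limma), and the adjusted p was 0.0564 without distal 2, 0.05 without distal 3, which missed the threshold, and 0.158 without both proximal 2 and proximal 3. Egr1, which is on the list of dissociation genes as well, was at 588, 1869 and 1882 FPKM in distal 1, 2 and 3 and at 314, 497 and 539.5 in proximal 1, 2 and 3, and did not pass (adjusted p = 0.0813 in limma; 0.00509 without distal 1). Rarb, Dhrs3, Crabp2 and Cyp26a1, which retinoic acid induces in many cell types, were thus either uncalled or below the filter in these libraries.

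Among 6560 protein-coding genes that averaged 5 FPKM or more, the profile over the 6 libraries most like that of Aldh1a3 was that of Gpx2, a glutathione peroxidase of epithelia. Likeness was measured as the root mean square difference of centred log2(FPKM + 1), which was 0.19 for Gpx2 and 0.23 for Tcim and for Mboat1. Gpx2 was at 5.31, 6.12 and 7.93 FPKM in distal 1, 2 and 3 and at 13.8, 17.8 and 25.9 in proximal 1, 2 and 3. Tcim was at 22.2, 24.9 and 32.9 FPKM in the distal libraries and at 65.1, 62.7 and 74.4 in proximal ones. Mboat1 was at 11.9, 16.7 and 19.9 FPKM in the distal libraries and at 40.7, 37.9 and 41.5 in proximal ones. All 3 genes were higher in every proximal library than in any distal one, as their choice by likeness to Aldh1a3 leads to.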

How the data were processed

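Total RNA of 6 samples was made into cDNA with a kit that primes at random and at poly(A) tails, and read on an Illumina HiSeq instrument, per the labels' protocols. Strand marking, tool versions other than bcl2fastq 1.8.3, and the annotation's name are not given in the sources used here. TopHat, Cufflinks and build mm10 were used, per the submitters' processing notes. FPKM of 63241 transcripts, each with its interval and status, make up a deposited file, 1 per library, per the file headers. The coverage of each transcript, a signal that is also in the deposited files, was not used in any comparison. FPKM carry no read counts, so the depth was estimated from the width of the deposited intervals.

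Transcripts were matched to GENCODE M21 by genomic span and spliced length (49609) or by exons (3714), which covered 93.9% of the FPKM. FPKM were summed per gene. On 2000 simulated transcripts, 91.3% were assigned, 99.8% of those to the right gene. Genes averaging 1 FPKM or more were compared on the log2(FPKM + 1) scale by limma 3.58.1 in R 4.3.3 (variance trend, no covariate), which was tested on simulated data. Calls are at a Benjamini-Hochberg adjusted p under 0.05. Fold changes on this scale understate the change of low genes. Shares and ratios were compared by directly coded exact two-sided permutation tests, with the Benjamini-Hochberg adjustment from scipy 1.17.1.

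The members and gene lists were chosen with earlier results of these data known. Named genes are the 9 members, the called and most abundant genes of each list, and the 3 genes most like a called member. Other named genes (Aldh1a2, Rxra, Bco1, the CYP26 genes and Svs5) were picked after values were seen. Alternatives covered pseudocount, filter, scaling, matching, variance trend, a replicate block and left-out libraries. Promoters for which the table has no entry were not used here, and a few listed genes are not reported here.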

Additional observations from a re-analysis of the deposited data

How the results depend on the processing

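Aldh1a3 kept its direction under all 18 alternatives and its call under 13. It missed the threshold with no filter (log2 fold change 1.52, as are the values that follow), and without both proximal libraries that held seminal vesicle transcripts (1.27), a setting chosen after seeing the data, and ranged from 1.25 to 1.75 with 1 library left out. Aldh1a1 kept its direction under all 18 and passed without both libraries numbered 1 (-0.77), with a leave-one-out range of -0.82 to -0.47 and a value of -0.23 (adjusted p = 0.616 in limma) without the 2 proximal libraries. Dhrs3 ranged from 0.07 to 0.71 with 1 library left out and was 0.01 without the 2 proximal libraries. Rdh10 passed without both numbered 1 (-0.42) and turned to 0.29 without the 2 proximal libraries; it ranged from -0.49 to -0.07 with 1 library left out. Crabp2 turned to 0.05 without both numbered 1 and ranged from -0.25 to 0.05. Rara turned to -0.15 without the 2 proximal libraries and ranged from 0.01 to 0.27 with 1 library left out, and Rarg passed without both numbered 1 (-0.48). The causes were not tested.

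Genes called higher were 464, and 273 at a filter of 5 FPKM, 881 without both numbered 1, 86 without the 2 proximal libraries and 192 to 550 with 1 library left out. Genes called lower were 256, and 137 with no filter, 168 at 5 FPKM, 1328 without both numbered 1, 19 without the 2 proximal libraries and 45 to 614 with 1 left out. With the replicate number as a block, 880 genes were higher and 732 lower, and Aldh1a1 passed (-0.62, adjusted p = 0.0171 in limma), as did Lipe, Ces1d, Adh1, Dhrs7, Cyp2s1, Ncor1, Egr1 and Btg2. Deviations of same-numbered libraries correlated at 0.383, 0.045 and 0.286, not every library correlated best with its own number, and the numbers were not taken as pairs.

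Among pathway genes with no call, the log2 fold change of Adh5 was 0.03 when rescaled to the same sum, 0.25 without the 2 proximal libraries and -0.18 to 0.08 with 1 library left out. Rdh11 was 0.05 when rescaled, 0.09 without both numbered 1 and -0.15 to 0.14 with 1 left out. Tgm2 was -0.18 without both numbered 1 and -0.08 to 0.17 with 1 left out, and Nrip1 was -0.24 to 0.03. Without the 2 proximal libraries Aldh1a7 was 0.01, Tbl1x -0.01 and Foxa1 0.00.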
